A study of Bos taurus with 8 samples.

Results

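Desmin (*DES*) and vimentin (*VIM*) are intermediate filament genes, and they were examined here together with the listed genes *NES* (nestin), *SYNM* (synemin), *LMNA* and *LMNB1* (nuclear lamins), and *PLEC* (plectin, a linker between filaments and other structures). A gene was taken up when the RefSeq accession of a probe on the array led to its symbol in the RefSeq table used here. Of the 7 listed genes, 2 were matched, *DES* (probe of NM_001081575) and *VIM* (probe of NM_173969), each by 1 probe, out of 7788 named genes and 21475 probes. *NES*, *SYNM*, *LMNA*, *LMNB1*, and *PLEC* were not analysed here.

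Intermediate filaments are rope-like polymers that give cells mechanical strength. Proliferating muscle precursor cells hold vimentin and nestin filaments, desmin appears early in the muscle program, and in mature fibers desmin surrounds the sarcomeres at the Z-discs and ties them to each other, to the nucleus, and to the membrane, while vimentin is lost. Vimentin is also the main intermediate filament protein of fibroblasts and other mesenchymal cells, so it does not mark muscle cells.

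The cells were primary cultures of the semitendinosus muscle of bulls slaughtered at 15 months, from Limousin (LIM) and Hereford (HER), both beef breeds, and from the dairy breed Holstein-Friesian (HF), untreated, and taken while proliferating at 80% confluence. RNA was hybridized to 8 two-colour arrays, 4 with LIM in Cy5 (red) beside HF in Cy3 (green), and 4 with HER in Cy3 beside HF in Cy5. The cultures were enriched for muscle precursors by preplating and were not sorted, so they could hold other cell types, and in bulk RNA fewer cells of a type and less RNA per cell cannot be told apart. The 4 arrays of a comparison shared 1 slide and 1 dye orientation, and both comparisons used HF cultures, with the HF bull of each array not given in the sources used here. The study used 4 bulls of each breed, so the HF cultures of the 8 arrays came from at most 4 bulls. The fit took the 8 arrays as independent. Values are log2 ratios of the beef breed over HF, from the log ratio of the scanner software, where 1 unit is a doubling. The mean of the LIM and HER ratios is called the beef mean, and in it a dye effect of a gene cancels. A difference was called at a limma adjusted p of at most 0.05 over 17631 tested probes. In a beef breed channel, 68.8% to 85.2% of all probes exceeded background clearly, the number of arrays limits the precision, HER replicate 3 stood apart with 38 spots of outlying red background, and LIM replicate 4 with an array weight in limma of 0.30, beside 0.81 to 1.89 on the other arrays.

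The *DES* level was higher in beef breed cells than in HF cells on 8 of 8 arrays. On the HER arrays, the log2 ratio of *DES* was 1.83, 2.40, 2.64, and 3.01 on replicates 1 to 4. On the LIM arrays it was 2.89, 1.64, 3.74, and 3.38. The lowest and the highest ratio both lay among the LIM arrays (replicates 2 and 3), and all 4 HER values fell between them. The 2 spots of the *DES* probe differed by at most 0.22 on any array.

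**Figure D1:**
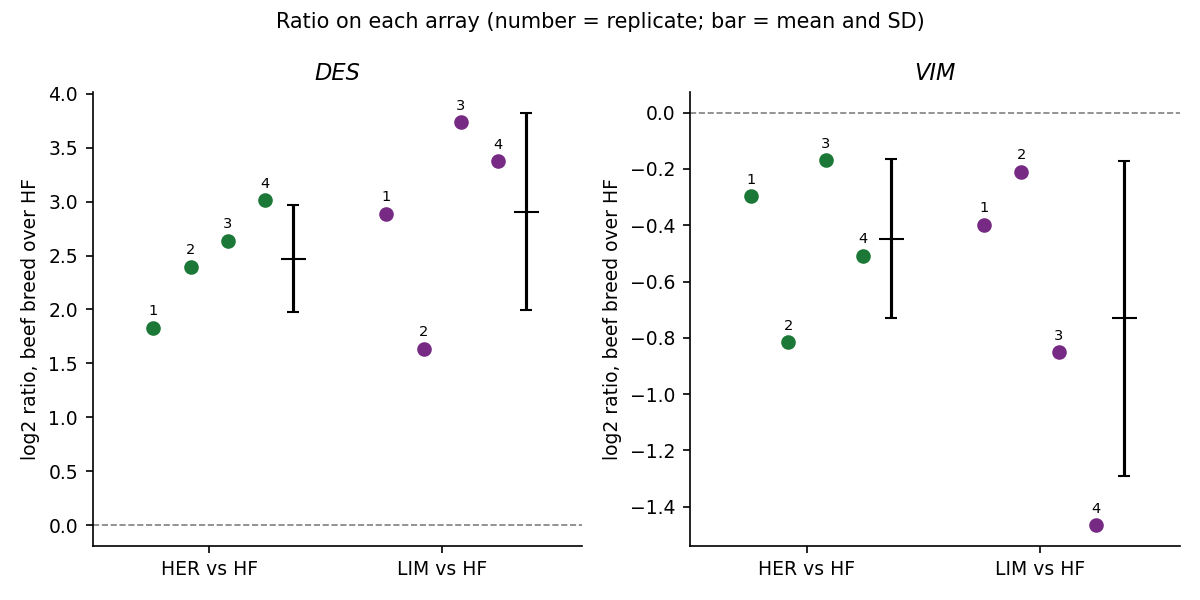
Log2 ratio of beef breed cells over HF cells for *DES* (left) and *VIM* (right), with 1 point per array, the replicate number above it, and the mean with its SD at the right of each group. All *DES* points lie between 1.64 and 3.74, above the dashed line at no difference, and all *VIM* points lie between -1.47 and -0.17, below it.

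The mean log2 ratio of *DES* was 2.91 ± 0.92 (n = 4, SD) in LIM, a fold change of 7.51 (limma adjusted p = 0.000799), and 2.47 ± 0.50 (n = 4, SD) in HER, a fold change of 5.54 (limma adjusted p = 0.00356). The beef mean was 2.69 (95% interval 2.17 to 3.21; limma adjusted p = 0.00017). Among all tested probes, 35.9% were called in LIM, 25.4% in HER, and 47.5% for the beef mean, and 16.6%, 10.7%, and 21.4% were called as higher, so a call alone was common on these arrays. By size, *DES* ranked 98 from the top in LIM and 94 in HER of 17631 probes. The LIM and HER ratios of *DES* differed by 0.44 (95% interval -0.61 to 1.48; limma adjusted p = 0.711), which is not past the threshold (0.233% of all tested probes were), and in that difference breed, dye, and slide cannot be told apart.

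The call for *DES* in HER was lost when local backgrounds were corrected by normexp as measured, with a HER ratio of 1.19 (limma adjusted p = 0.255). It held with the outlying backgrounds replaced (2.08, limma adjusted p = 0.00449) and without background correction (2.22, limma adjusted p = 0.00381). The LIM ratio stayed past the threshold in all of these (2.32, 2.45, and 2.62). With backgrounds as measured, 0 of all tested probes were called in HER (limma, 2882 at an unadjusted p of 0.05), so none of the HER calls given for any gene here held under that setting.

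The channel signals of *DES* had been corrected for background and dye by the scanner software, and were not normalized between arrays. In the HER channel the processed signal of *DES*, in scanner units, was 783, 2115, 549, and 1141 on replicates 1 to 4, beside 220.0, 402, 88.3, and 141 in the HF channel. In the LIM channel it was 2066, 822, 4957, and 2302, beside 279, 265, 371, and 222 in HF. The lowest beef breed value, 549, lay above the highest HF value, 402, and the probe was well above background in 16 of 16 channels. How many of all tested probes had such a gap was not counted. The beef breed signals spanned a 9.02-fold range and the HF signals a 4.55-fold range.

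**Figure D2:**
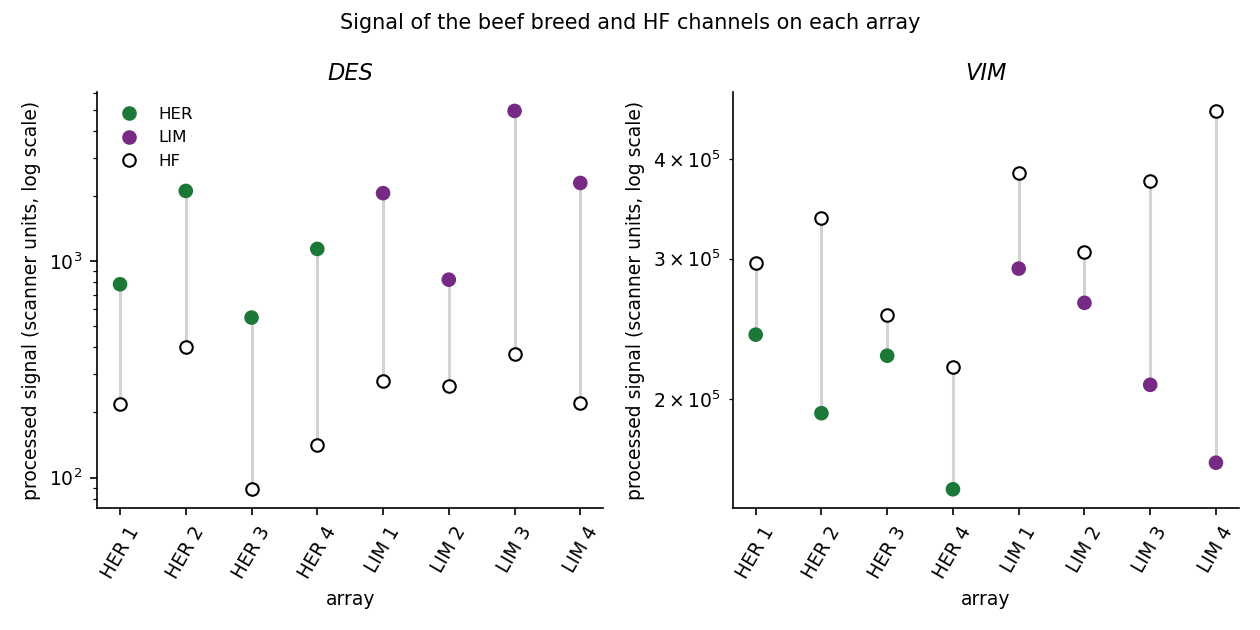
Processed signal of the *DES* probe (left) and the *VIM* probe (right) in the beef breed channel (filled) and the HF channel (open) of each array, in scanner units on a log axis. For *DES* each filled point lies above every open point, while for *VIM* each filled point lies below the open point of its own array, with overlap between the arrays.

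The *VIM* level was lower in beef breed cells than in HF cells on 8 of 8 arrays, by a smaller amount. The log2 ratio of *VIM* was -0.30, -0.82, -0.17, and -0.51 on HER replicates 1 to 4. In LIM it was -0.40, -0.21, -0.85, and -1.47. LIM replicate 4 had the lowest value, below all HER arrays, and the other 3 LIM values lay in or next to the HER range.

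The mean log2 ratio of *VIM* was -0.73 ± 0.56 (n = 4, SD) in LIM, a level 1.66-fold lower (limma adjusted p = 0.0249), and -0.45 ± 0.28 (n = 4, SD) in HER, which did not pass the threshold (limma adjusted p = 0.139). The beef mean of *VIM* was -0.59 (95% interval -0.92 to -0.26; limma adjusted p = 0.0108), where 26.2% of all tested probes were called as lower (19.3% in LIM and 14.7% in HER). Without LIM replicate 3 or 4, the LIM ratio of *VIM* was -0.69 or -0.49 and no longer called (limma adjusted p = 0.0911 and 0.0542). The ratios of LIM and HER differed by -0.28 (95% interval -0.95 to 0.38; limma adjusted p = 0.704), not past the threshold.

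The ratio of *VIM* was also read without dye normalization. As scanned, the *VIM* spots were brighter in red than in green on 8 of 8 arrays, whichever breed was in red, by a log2 of 0.17 to 1.79. With no background correction and no loess, each array being centred only on its median, the LIM ratio was 0.42, 0.46, 0.18, and -0.18 on replicates 1 to 4 (mean 0.22, limma adjusted p = 0.236). This setting moved the LIM arrays in general, with a median over all tested probes of 0.26 in LIM, -0.0035 in HER, and 0.29 for LIM minus HER, so the LIM ratio of *VIM* lay just under that median. Under the same setting the HER ratio was -0.30, -1.09, -0.63, and -0.88 (mean -0.73, limma adjusted p = 0.0138), and the beef mean was -0.25 (limma adjusted p = 0.0738). For *DES* the same setting gave 3.13 in LIM and 2.22 in HER, both called (limma adjusted p = 0.000283 and 0.00338). This setting was chosen after the data were seen.

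**Figure D3:**
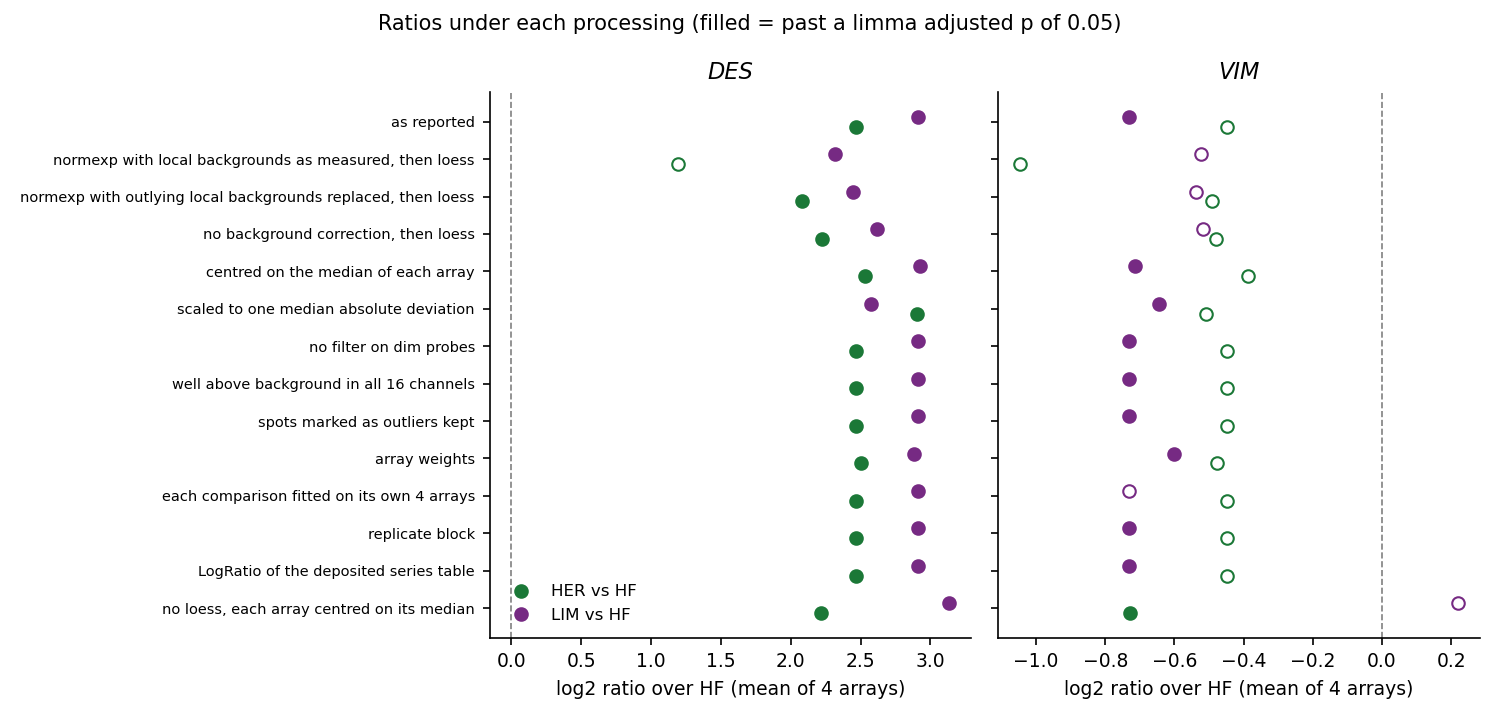
Mean log2 ratio over HF of *DES* (left) and *VIM* (right) for HER and LIM under each way of processing the arrays, filled where the limma adjusted p was at most 0.05. The *DES* ratios lie between 1.19 and 3.13 with 1 open point, whereas the LIM ratio of *VIM* moves from -0.73 as reported to 0.22 without loess, where the median of all tested probes in LIM was 0.26.

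The *VIM* probe gave a strong signal in every channel. In HER the processed signal of *VIM* ranged from 154184 to 240943 beside 219223 to 337903 in HF, and in LIM from 166485 to 291571 beside 305462 to 459677 in HF. The HER and HF ranges overlapped on the HER arrays, and the LIM and HF ranges did not on the LIM arrays. The HF signals of the HER arrays, from 219223, reached into the LIM range. The brightest *VIM* spot as scanned was at 282230, under the lowest saturation value of the scanner, 778201. Within each array, the ratio of *DES* was higher than that of *VIM*, by a log2 of 1.84 (LIM replicate 2) to 4.84 (LIM replicate 4) with a median of 3.25.

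Genes of muscle differentiation were higher in beef breed cells beside *DES*. Of 10 markers of differentiating muscle cells, 6 were tested and 6 of 6 were called as higher in LIM, in HER, and for the beef mean. Of all tested probes, 16.6%, 10.7%, and 21.4% were called as higher in these. The beef mean log2 ratio was 4.70 for *ACTA1* (skeletal actin), 4.18 for *MYH3* (embryonic myosin heavy chain), 3.33 for *ACTC1* (cardiac actin) and for *MYL1* (a myosin light chain), and 2.76 for *TNNC1* (the calcium-binding troponin). *MYOG*, the transcription factor of terminal differentiation, had 2.04 ± 0.51 (n = 4, SD) in LIM and 2.07 ± 0.40 (n = 4, SD) in HER (limma adjusted p = 0.000738 and 0.00225). The summed signal of the 6 probes ranged from 13502 to 100390 in beef breed channels and from 1614 to 9246 in HF channels. Their median ratio was above that of *DES* on 7 of 8 arrays, and *DES* minus that median ran from -1.49 to 0.02.

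Markers of satellite cells and myoblasts were less uniform. Of 8 such markers 6 were tested, 4 were called as higher for the beef mean and 0 as lower (3 higher and 0 lower each in LIM and in HER), beside 21.4% of all tested probes higher for the beef mean (16.6% in LIM and 10.7% in HER), and *PAX7*, which marks satellite cells, was not analysed here. *MYF5*, an early regulator of the muscle lineage, had a ratio of 2.41 ± 0.73 (n = 4, SD) in LIM and 1.38 ± 0.56 (n = 4, SD) in HER (limma adjusted p = 0.000883 and 0.0131). *MYOD1*, which commits cells to the lineage, had 0.88 in LIM and 1.12 in HER, past the threshold in neither (limma adjusted p = 0.117 and 0.0706), with a beef mean of 1.00 (limma adjusted p = 0.0193). The HER call of *MYF5* was lost without HER replicate 1 or 2 (1.29 and 1.18), and the beef mean of *MYOD1* was not called without LIM replicate 1 (0.88, limma adjusted p = 0.0502). The other called markers were *CDH15* (M-cadherin, beef mean 2.38) and *ITGA7* (a laminin receptor, beef mean 1.52). The summed signal of the 6 probes was 32369 to 115253 in beef breed channels and 11411 to 59347 in HF channels, which overlapped, though it was higher in the beef breed on 8 of 8 arrays. The ratio of *DES* exceeded the median of these markers on each array, by 0.24 to 2.51.

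Markers of other cell types also differed beside *DES* and *VIM*, and their part in these results was not tested. For the beef mean, 21.4% of all tested probes were called as higher and 26.2% as lower, and the counts of these short lists stand beside those shares. Of 8 fibroblast markers tested, 6 were called as higher for the beef mean and 1 as lower (4 and 1 each in LIM and in HER). Of all tested probes, 16.6% were called as higher and 19.3% as lower in LIM, and 10.7% and 14.7% in HER. The beef mean was 2.69 for *COL3A1* and 2.22 for *COL1A1* (fibrillar collagens), against -1.42 for *PDGFRA*, a receptor of mesenchymal progenitors. The summed fibroblast signal was 181891 to 553768 in beef breed channels and 40812 to 150702 in HF channels. In such a sum the bright probes weigh most. Of 4 markers of smooth muscle cells and pericytes, 2 were called as higher and 0 as lower, with summed signals of 215470 to 467824 in the beef breed and 101265 to 273286 in HF. Of 5 adipocyte markers, 2 were called as higher and 2 as lower, and their summed signal was lower in the beef breed on 8 of 8 arrays (17974 to 63647 beside 55005 to 149776). Among 3 endothelial markers 0 were called (limma, with 1, *TIE1*, at an unadjusted p of 0.05), among 2 leukocyte markers 1 was called as higher, and among 3 markers of dividing cells 1 was called as lower. Their summed signals were 145 to 5437 beside 265 to 1365 for the endothelial list, 115 to 382 beside 113 to 358 for the leukocyte list, and 1972 to 7402 beside 2830 to 8261 for dividing cells.

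Among other intermediate filament genes, 1 was called as higher and 5 as lower for the beef mean, beside 21.4% and 26.2% of all tested probes. Of 31 such genes 10 were tested, with 1 called as higher and 3 as lower in LIM (16.6% and 19.3% of all probes) and 1 and 1 in HER (10.7% and 14.7%). The gene called as higher, *BFSP2*, had passed the filter on dim probes through beef breed channels alone and so had to differ, and the median log2 ratio of the 10 for the beef mean was -0.30, beside -0.04 over all tested probes. *KRT14*, a keratin of basal epithelial cells, was lower on 8 of 8 arrays, at -1.04 ± 0.11 (n = 4, SD) in LIM and -0.59 ± 0.28 (n = 4, SD) in HER (limma adjusted p = 0.000883 and 0.0142). Its 4 LIM values, from -1.17 to -0.92, were close together, and the HER values ran from -0.97 to -0.32. Without HER replicate 1 or 2, the HER ratio of *KRT14* was -0.46 or -0.58 and not called (limma adjusted p = 0.0555 and 0.0602).

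*BFSP2*, which encodes the lens filament protein phakinin, had a very low signal. On none of the 8 arrays was its HF channel well above background, so the size of its ratio is uncertain and no fold change is given. The LIM channel was well above background on 4 of 4 arrays and the HER channel on 2 of 4. With normexp on backgrounds as measured, the log2 ratio of *BFSP2* was 0.25 in HER (limma adjusted p = 0.351) and 0.32 in LIM (limma adjusted p = 0.0946), neither of them called.

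The other 4 genes called as lower for the beef mean were *KRT6A* (-0.80), *PRPH* (peripherin of nerve cells, -0.65), *KRT18* (-0.49), and *KRT8* (-0.33), the last pair forming the filaments of simple epithelia. *KRT6A*, *PRPH*, and *KRT8* were chosen after their values were seen, and *KRT18* fell under the naming rule given below, which itself used the values. In LIM *KRT6A* and *KRT8* passed the threshold (limma adjusted p = 0.0393 and 0.0356), and in HER none of the 4 did (limma adjusted p from 0.0825 to 0.459). *PRPH* and *KRT6A* were lower on 7 of 8 arrays, *KRT18* on 8 of 8, and *KRT8* on 6 of 8. The probe of *PRPH* was well above background in 5 of 8 beef breed channels and 6 of 8 HF channels, and that of *KRT18* in 7 of 8 and 8 of 8. Both were dim, with a highest processed signal of 79.2 for *PRPH* and 94.4 for *KRT18* (HF channel of LIM replicate 1). The size of the ratios of *PRPH* and *KRT18* is therefore uncertain. In all 3 alternatives of the background step the beef mean was no longer called for *PRPH* (-0.17 to -0.08), *KRT18* (-0.12 to -0.06), and *KRT8* (-0.14 to -0.08). When 1 array at a time was omitted, between 3 and 6 of the 10 genes were called. The beef mean of *KRT18* was not called without HER replicate 1, 2, 3, or 4 or LIM replicate 1 or 2 (-0.36 to -0.55), nor those of *PRPH* (-0.56 to -0.64) and *KRT8* (-0.26 to -0.36) without HER replicate 1, 2, or 3 or LIM replicate 1 or 2. In LIM the call of *KRT6A* was lost without HER replicate 1 or 4 (-0.95) or LIM replicate 1, 3, or 4 (-0.75, -0.86, and -1.01), and that of *KRT8* without LIM replicate 1, 2, or 3 (-0.45, -0.36, and -0.57).

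**Figure D4:**
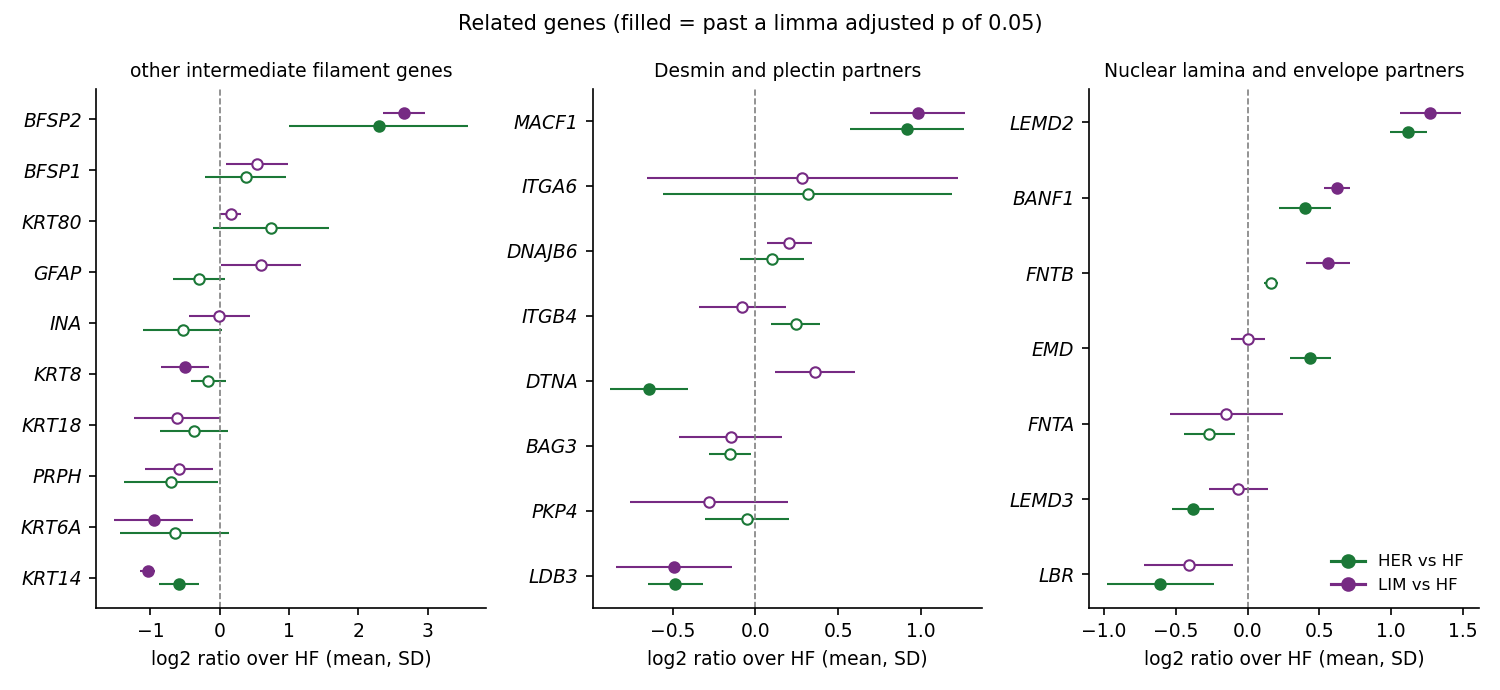
Mean log2 ratio over HF with its SD (n = 4) in HER and LIM for the tested genes of the related lists, ordered by their beef mean and filled where the limma adjusted p was at most 0.05. *BFSP2*, *MACF1*, and *LEMD2* lie at the right of the panels, and *DTNA* has its LIM and HER means on opposite sides of 0.

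Of 20 genes for partners of desmin and plectin 8 were tested, and 1 was called as higher and 1 as lower for the beef mean (1 and 1 in LIM, 1 and 2 in HER). Among all tested probes 47.5% were called for the beef mean, 35.9% in LIM, and 25.4% in HER, and the median ratio of the 8 genes was -0.03. *MACF1*, a spectraplakin that links actin to microtubules and is related to plectin, had 0.98 ± 0.28 (n = 4, SD) in LIM and 0.92 ± 0.35 (n = 4, SD) in HER (limma adjusted p = 0.0026 and 0.00739). Its ratio lay between 0.58 and 1.36 on the 8 arrays, all above 0. *LDB3*, whose product sits at the Z-disc, was lower on 8 of 8 arrays, at -0.49 ± 0.35 (n = 4, SD) in LIM and -0.48 ± 0.16 (n = 4, SD) in HER (limma adjusted p = 0.0283 and 0.041). The *LDB3* call was lost in HER without any 1 of the HER arrays (-0.41 to -0.52) and without LIM replicate 2 or 3, and in LIM without LIM replicate 2, 3, or 4 (-0.54, -0.45, and -0.35). In HER it was also lost under each alternative of the background step (-0.27 to -0.41, limma adjusted p from 0.0567 to 0.327). The same held in HER with each array centred on its median (-0.42, limma adjusted p = 0.0704). In LIM it was also lost with normexp on backgrounds as measured (-0.38, limma adjusted p = 0.0531) and in a fit of the 4 LIM arrays alone (limma adjusted p = 0.0942). Without loess the LIM ratio was 0.13 (limma adjusted p = 0.366), beside the median of 0.26 over all tested probes, and with the replicate number as a block neither ratio was called (limma adjusted p = 0.0601 in LIM and 0.077 in HER).

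*DTNA*, which encodes dystrobrevin alpha, a partner of dystrophin and of synemin, was chosen after its values were seen. Its ratio was 0.70, 0.26, 0.36, and 0.14 on LIM replicates 1 to 4 and -0.94, -0.38, -0.56, and -0.69 on HER replicates 1 to 4. The comparisons did not overlap, every LIM array being above 0 and every HER array below it. How many of all tested probes were split in this way was not counted. The mean was 0.36 in LIM (limma adjusted p = 0.0623) and -0.64 in HER (limma adjusted p = 0.0127), and the difference of 1.00 was not past the threshold (limma adjusted p = 0.0829), with breed, dye, and slide not separable in it. The difference was called with array weights (0.97, limma adjusted p = 0.0383) and without loess (1.40, limma adjusted p = 0.0116, where the median of all tested probes was 0.29). Of all tested probes, 41 were called for LIM minus HER as reported, 224 with array weights, and 1937 without loess. Without HER replicate 1 the HER ratio was -0.54 and not called (limma adjusted p = 0.0581), and without LIM replicate 4 the LIM ratio was 0.44 and called (limma adjusted p = 0.0439).

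Of 20 genes for partners of the lamins at the nuclear envelope 7 were tested, with 4 called as higher and 2 as lower for the beef mean (3 and 0 in LIM, 3 and 2 in HER) and a median ratio of 0.22. The shares of all tested probes were 21.4% and 26.2% for the beef mean, 16.6% and 19.3% in LIM, and 10.7% and 14.7% in HER. *LEMD2*, an inner nuclear membrane protein that binds A-type lamins, had a ratio of 1.15, 1.11, 1.58, and 1.26 on LIM replicates 1 to 4. In HER it was 1.17, 1.00, 1.03, and 1.28. The values were close on all 8 arrays and the comparisons overlapped, with means of 1.27 ± 0.21 (n = 4, SD) in LIM and 1.12 ± 0.13 (n = 4, SD) in HER (limma adjusted p = 0.000528 and 0.00221).

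*BANF1*, which ties chromatin to the lamina, had 0.62 ± 0.09 (n = 4, SD) in LIM and 0.40 ± 0.18 (n = 4, SD) in HER (limma adjusted p = 0.003 and 0.027). *FNTB*, a subunit of the enzyme that adds the farnesyl anchor to lamins, had 0.56 ± 0.15 (n = 4, SD) in LIM (limma adjusted p = 0.00354) and 0.16 ± 0.05 (n = 4, SD) in HER (limma adjusted p = 0.242). Without HER replicate 1, 2, or 4 the HER ratio of *BANF1* was 0.36, 0.34, or 0.43 and not called. The remaining called genes, chosen after their values were seen, were *EMD* (emerin, beef mean 0.22), *LBR* (the lamin B receptor, -0.51), and *LEMD3* (-0.22). In LIM their ratios were 0.0041, -0.41, and -0.065, none of them called (limma adjusted p = 0.979, 0.0893, and 0.681). In HER they were 0.44, -0.61, and -0.38, each called (limma adjusted p = 0.0184, 0.0323, and 0.0422). Each of these HER calls was lost without HER replicate 1, 2, or 3. With any 1 of the 8 arrays except LIM replicate 4 left out, the beef mean of *LEMD3* was no longer called (limma adjusted p from 0.0583 to 0.124). Neither was that of *EMD* without replicate 1, 2, or 3 of HER or of LIM (0.20 to 0.24).

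The genes whose pattern lay nearest to that of *DES* were *TNNC1*, *PGAM2*, *RRAD*, *ANGPTL4*, and *F2*. Likeness was the root mean square difference in log2 ratio over the 8 arrays among 6807 named genes, and it was 0.40 for *TNNC1*, 0.53 for *PGAM2* (the muscle form of a glycolytic enzyme), 0.65 for *RRAD* (a small GTPase), 0.72 for *ANGPTL4* (an inhibitor of lipoprotein lipase), and 0.76 for *F2* (prothrombin). The next gene, *CYRIA*, was at 0.77, so the fifth place was nearly shared. *TNNC1* had 3.01 ± 0.51 (n = 4, SD) in LIM and 2.51 ± 0.28 (n = 4, SD) in HER.

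For *F2*, no HF channel was well above background and the probe passed the filter through beef breed channels alone, so the size of its ratios is uncertain.

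**Figure D5:**
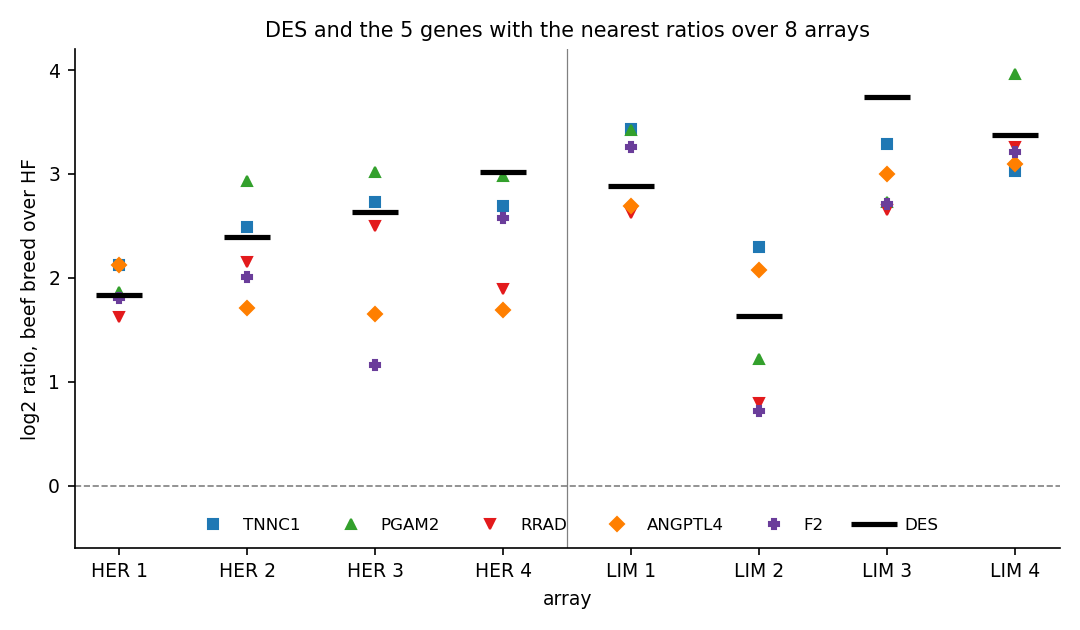
Log2 ratio over HF of *DES* (black bars) and of the 5 genes with the smallest root mean square difference from it (symbols) on each of the 8 arrays. On LIM replicate 2 *DES* is at 1.64 and the 5 genes lie between 0.72 and 2.29.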

How the data were processed

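RNA of muscle cell cultures of 4 bulls of each breed was read in 8 pairs (4 LIM and HF, 4 HER and HF) on two-colour Agilent arrays. The authors deposited the output of Feature Extraction 10.7.3.1 for each array, with spot and background intensity in both colors, processed signals, and the log10 of red over green, formed after background subtraction and dye normalization (linear and lowess). The deposited series table holds the same log10 ratio. Groups, dyes, and replicate numbers came from the sample labels.

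The log10 ratios were turned to log2 beef breed over HF. Controls and outlier-marked spots were dropped, the remaining spots averaged by probe, and 17631 of 21475 probes tested, each well above background in 4 or more of 16 channels. All 8 arrays were fitted with limma 3.58.1 (lmFit, eBayes) in R 4.3.3, with a mean for each comparison and Benjamini-Hochberg adjustment over all tested probes. Intervals are 95% intervals of the fit. The steps were tested on simulated data. Accessions were named through a RefSeq table on ARS-UCD2.0 (7793 of 20693 names matched). No coordinates are given, since the array was designed on a different assembly. A gene with several probes is represented by its brightest.

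The members, lists, and tests were chosen with earlier results of these data known. Named were the members, up to 3 genes of each related list with the largest beef mean among those called and of one sign on 8 arrays, the 5 genes nearest to *DES*, and *MYF5*, *MYOD1*, *MYOG*, and *PAX7*. Others are said to be chosen after their values were seen, as were the marker genes *CDH15*, *ITGA7*, *ACTA1*, *MYH3*, *ACTC1*, *MYL1*, *COL1A1*, *COL3A1*, *PDGFRA*, and *TIE1*. Alternatives covered background correction, normalization, filter, outlier marks, array weights, fits per comparison, the methods' t-test and rule, a replicate block, the series table, and leaving out each array.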

Additional observations from a re-analysis of the deposited data

Results flagged for a closer look

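*DTNA* had a higher level than HF on all 4 LIM arrays and a lower one on all 4 HER arrays, and how many tested probes were split in this way was not counted. The LIM minus HER difference was 1.0 (1.0017) on the log2 scale and did not pass the threshold (limma adjusted p = 0.0829), though it was called with array weights (0.97) and without loess (1.40), and breed, dye, and slide cannot be told apart in it.

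In 4 of 50 sets of 4 arrays (25 genes in each comparison), 1 array lay far from the other 3, where chance alone gives about 1 such set in 20 (Dixon's test at 95%). *KRT18* had a log2 ratio of -1.10 on HER replicate 3, where its HER channel was not well above background, with -0.23 to -0.05 on the rest of the HER arrays. *BANF1* had 0.76 on LIM replicate 2, against 0.56 to 0.59 on the other LIM arrays. On HER replicate 1, *PGAM2* had 1.86, where the remaining HER arrays had 2.94 to 3.02, and *ANGPTL4* had 2.12, against 1.65 to 1.71.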

How the results depend on the processing

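For *DES*, the call for the beef mean held under all alternatives that give one (1.75 to 2.90). It was lost in HER with normexp on backgrounds as measured (1.19, limma adjusted p = 0.255). With the methods' t-test after Benjamini-Hochberg adjustment it was lost in LIM (2.91) and HER (2.47), with adjusted p of 0.0653 and 0.0771. With each array left out, *DES* ran from 2.63 to 3.33 in LIM and from 2.29 to 2.68 in HER, and was called each time. Its LIM minus HER difference turned to -0.33 when arrays were scaled to one median absolute deviation.

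For *VIM* in LIM, the call was lost with normexp on backgrounds as measured (-0.52) or replaced (-0.54), without background correction (-0.52), and in a fit of the 4 LIM arrays alone and the methods' t-test, adjusted or not (-0.73 each), and over left-out arrays it ran from -0.90 to -0.49. Without loess it was 0.22 in LIM, -0.73 and called in HER, and -0.25 and not called for the beef mean, and LIM minus HER turned to 0.95 (limma adjusted p = 0.0388), where the medians of all tested probes were 0.26 in LIM and 0.29 for LIM minus HER. That difference also turned with normexp on backgrounds as measured (0.52).

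The number of probes called was 6329 in LIM, 4473 in HER, 8383 for the beef mean, and 41 for LIM minus HER. It was 1077 in LIM and 2 in HER with the adjusted t-test, 0 in HER with normexp on backgrounds as measured (2882 at an unadjusted limma p of 0.05), and 10687 in LIM and 2818 in HER without loess. Without loess 65.9% of the LIM calls were higher, against 46.1%. Over left-out arrays it ran from 3796 (without LIM replicate 3) to 7272 in LIM and from 1527 (without HER replicate 2) to 5979 in HER, with 1574 and 2660 without HER replicates 1 and 3. LIM minus HER gave 0 with normexp on backgrounds as measured, the filter on 16 channels, and the replicate block, 1 with backgrounds replaced or uncorrected, 15 scaled, 76 unfiltered, 224 with array weights, 1937 without loess, 2482 by the methods' rule, and 1 to 14 over left-out arrays.

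Other intermediate filament genes called were 3 with normexp on backgrounds as measured and 3 to 6 over left-out arrays, against 6, and desmin and plectin partners 2 to 4 over left-out arrays (4 without LIM replicate 4), against 2.

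Of the replicate numbers, 1 of 4 was best matched by its own (correlation of same-numbered residuals -0.24, 0.13, 0.30, and 0.54). With 4 arrays per comparison, this check cannot decide whether arrays shared an HF bull. With the replicate block 6469 probes were called in LIM and 4308 in HER, the calls of *DES* and *VIM* did not change, *LDB3* was not called in LIM or HER, nor *LEMD3* in HER, nor the beef means of *KRT18* and *LEMD3* (limma adjusted p = 0.0887 and 0.0928), and *PRPH* was called in HER.

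Of 1550 values of genes other than *DES* and *VIM* under alternatives, 10 changed sign. With normexp on backgrounds as measured, *KRT18* in HER was 0.014 and *KRT8* 0.0020. Without loess, beside that LIM median of 0.26, LIM values were 0.13 for *LDB3*, 0.26 for *LBR*, and 0.58 for *LEMD3*, and beef means 0.16 for *DTNA* and 0.14 for *LEMD3*. *EMD* in LIM ran from -0.029 to 0.049 over left-out arrays (below 0 without LIM replicate 1 or 3), and *LEMD3* in LIM from -0.13 to 0.027 (above 0 without LIM replicate 2). Another 165 of these values lost and 25 gained a call. The cause was not tested. The t-test and the fit per comparison give no beef mean, and a second probe could not be tried, since *DES* and *VIM* had 1 each.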
